A study of Homo sapiens with 2 samples.

Results

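The cytosolic ribosome is built from ribosomal RNA and a large set of proteins, and the genes for those proteins were examined as 1 group in single-cell RNA-seq of leukemia cells. A gene was a member when its symbol was RPL or RPS with a number and at most A, L, L1 or X after it, or was RPLP0, RPLP1, RPLP2, RPSA or FAU, and when it had 50 or more UMIs over both libraries. UMIs, the tags by which 10x reads are collapsed to molecules, were counted per gene. Of 36601 genes in the files, 85 fitted the names and 83 of these reached the minimum, among 12128 genes that reached it in all. The members comprised 50 genes of the large subunit and 33 of the small subunit. RPL10L and RPL3L, paralogs of RPL10 and RPL3, had 0 UMIs in both libraries and were left out, while 5 other paralogs, RPL7L1, RPL22L1, RPL26L1, RPL39L and RPS27L, were members.

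The first library came from cells that received 0.8 µM SP11 over 48 h and the second from untreated control cells, and both carry the label MOLT4, an established T-cell acute lymphoblastic leukemia line. SP11 is presented by the study as a compound that blocks HSP90, the chaperone on which many signalling proteins depend for folding. With 1 library per group there is no replicate check and no test between the groups, and all differences are between 2 libraries, in which the number of cultures pooled is not stated.

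Ribosomal proteins assemble on ribosomal RNA in the nucleolus, where the small and the large subunit are built separately and then exported to the cytoplasm. Each subunit carries nearly every one of its proteins in a single copy, apart from the acidic stalk proteins, so cells make these mRNAs in a coordinated way and degrade proteins that find no place in a subunit. Most of the mRNAs begin with a 5′ terminal oligopyrimidine (TOP) motif, a C followed by a run of pyrimidines at the first transcribed base, through which their translation is tied to mTORC1 and the protein LARP1.

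The start sites of the members the results turn on are shown as windows of 25 bases, with 10 bases before the RefSeq start and 15 from it, written 5′ to 3′. They come from RefSeq on GRCh38.p14, and capitals mark a tract that begins with C, runs on in pyrimidines for at least 4 bases and starts within 5 bases of the annotated start. RPS26 and RPS28 had the highest ratios of SP11 to control, RPS18 had the lowest, and the others are 3 pairs of a member and its paralog.
RPS26: acataacctcgattttcttccgcca
RPS28: gaagcacgtgaCTCCTCTCCgccag
RPS18: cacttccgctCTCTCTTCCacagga
RPL22: cgctcacctcCCTTTCTaactccgc
RPL22L1: ccgtagcttcCTCTCTgctctcgcg
RPL26: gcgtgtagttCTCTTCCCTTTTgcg
RPL26L1: tccaggggtcggcgaacgaaacgcg
RPS27: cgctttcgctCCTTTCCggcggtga
RPS27L: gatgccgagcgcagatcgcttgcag
The windows lie at chr12:56041908-56041932 on the plus strand for RPS26, chr19:8321486-8321510 on the plus strand for RPS28 and chr6:33272065-33272089 on the plus strand for RPS18. Those of the pairs lie at chr1:6199581-6199605 (minus) for RPL22 and chr3:170870181-170870205 (minus) for RPL22L1, at chr17:8383179-8383203 (minus) for RPL26 and chr5:172958719-172958743 (plus) for RPL26L1, and at chr1:153990752-153990776 (plus) for RPS27 and chr15:63157463-63157487 (minus) for RPS27L. RPS18, RPL22, RPL22L1, RPL26 and RPS27 carry the tract exactly at the start, RPS28 carries it 1 base further in, and RPS26, RPL26L1 and RPS27L have none within 5 bases.

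The study's stated filters left 852 SP11 cells and 1053 control cells, with medians of 10488.5 UMIs in SP11 and 17711 UMIs in control. The study retained fewer cells of both libraries than this, mainly fewer control cells, and names no other filter. The median share of mitochondrially encoded UMIs was 5.51% in SP11 and 8.94% in control, and 114 cell barcodes occurred in both libraries. Those shared barcodes made up 112 of the kept SP11 cells and 111 of the kept control cells, with medians of 10999.5 UMIs in SP11 and 18017 UMIs in control, so they were not confined to shallow cells. How they came to be shared was not tested, and the summed result and the counts of members are also given without them. The label was checked against 28 T-lineage markers, of which 17 had 0 UMIs in SP11 and 14 had 0 in control. Both libraries had 0 UMIs of BCL11B, CD7, CD8A, DNTT, CD3G, CD3D, TRBC2 and TRBC1, and CD4 was the 1 marker at 10 CPM or more in either. CPM, used throughout for levels, is the count of a gene scaled to a common total of the kept cells (counts per 1e+06 UMIs). Of 7 granulocyte precursor markers, 5 reached 10 CPM in each library, with summed levels of 1013 CPM in SP11 and 2271 CPM in control. Of 12 monocyte or macrophage markers, 4 reached 10 CPM in each library, and the 12 summed to 1142 CPM in SP11 and 397 CPM in control. Most of the SP11 sum came from LYZ (736 CPM), S100A8 (219 CPM) and S100A9 (136 CPM). SPI1 (27.9 CPM in SP11 and 90.1 CPM in control), MARCO and ITGAM were lower in SP11, and MRC1 had 0 UMIs in both. The cells are therefore called by their library below, and the part of cell identity in any difference was not tested.

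Transcripts of the ribosomal protein genes made up a larger part of the SP11 library than of the control library. They gave 2195955 of 9498802 UMIs in SP11, a share of 23.1% (23.09 to 23.15%), against 3630871 of 19375163 UMIs in control, a share of 18.7% (18.72 to 18.76%). The log2 ratio of the summed levels was 0.30 (0.30 to 0.31), a 1.23-fold difference, and 0.29 without the cells whose barcodes occur in both libraries. The direction was the opposite in cells of 5000 to 10000 UMIs, where the log2 ratio was −0.07. Within the shared barcodes alone the share was 23.9% in SP11 and 18.5% in control. These and all other intervals are exact 95% intervals for counting error only, and they carry no information on how far 2 cultures treated alike would differ. Ribosomal protein genes are read by nearly every cell here, with the median member detected in 99.1% of SP11 cells and 98.8% of control cells, and no cell type without them was available to measure free RNA.

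Taken gene by gene, the median log2 ratio of the 83 members was 0.30 (quartiles −0.12 and 0.59), while the median over all 12128 measured genes was −0.35. At least 1.5-fold higher levels in SP11 were seen for 23 members, 8 were at least 1.5-fold lower and 52 lay between, and without the shared barcodes 21 were higher and 8 lower. Over all measured genes, 10.7% were at least 1.5-fold higher in SP11 and 38.4% were at least 1.5-fold lower. Relative to the median gene, the counts were 44 members higher and 1 lower, the 1 being RPS18, against 22.5% and 24.3% of all measured genes. Other abundant genes also lay above the median gene: the 55 further genes at 1000 CPM or more had a median of 0.23, with 15 higher and 10 lower by 1.5-fold. Set against the median gene, 28 of these 55 genes were higher and 4 lower by 1.5-fold. Of 77 mitochondrial ribosomal protein genes, 46 were higher and 1 lower on that measure. The summed log2 ratio of these 55 genes was −0.07, with 15.7% of UMIs in SP11 and 16.5% in control, so the sum went the other way from that of the members. The 1641 other genes at 100 CPM or more had a median of 0.07 and a summed log2 ratio of 0.04. The 4193 other genes within the intronic length range of the members had a median of 0.01 but a summed log2 ratio of 0.31. That sum was close to the 0.30 of the members, so a summed rise of this size was not confined to ribosomal protein genes.

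**Figure D1:**
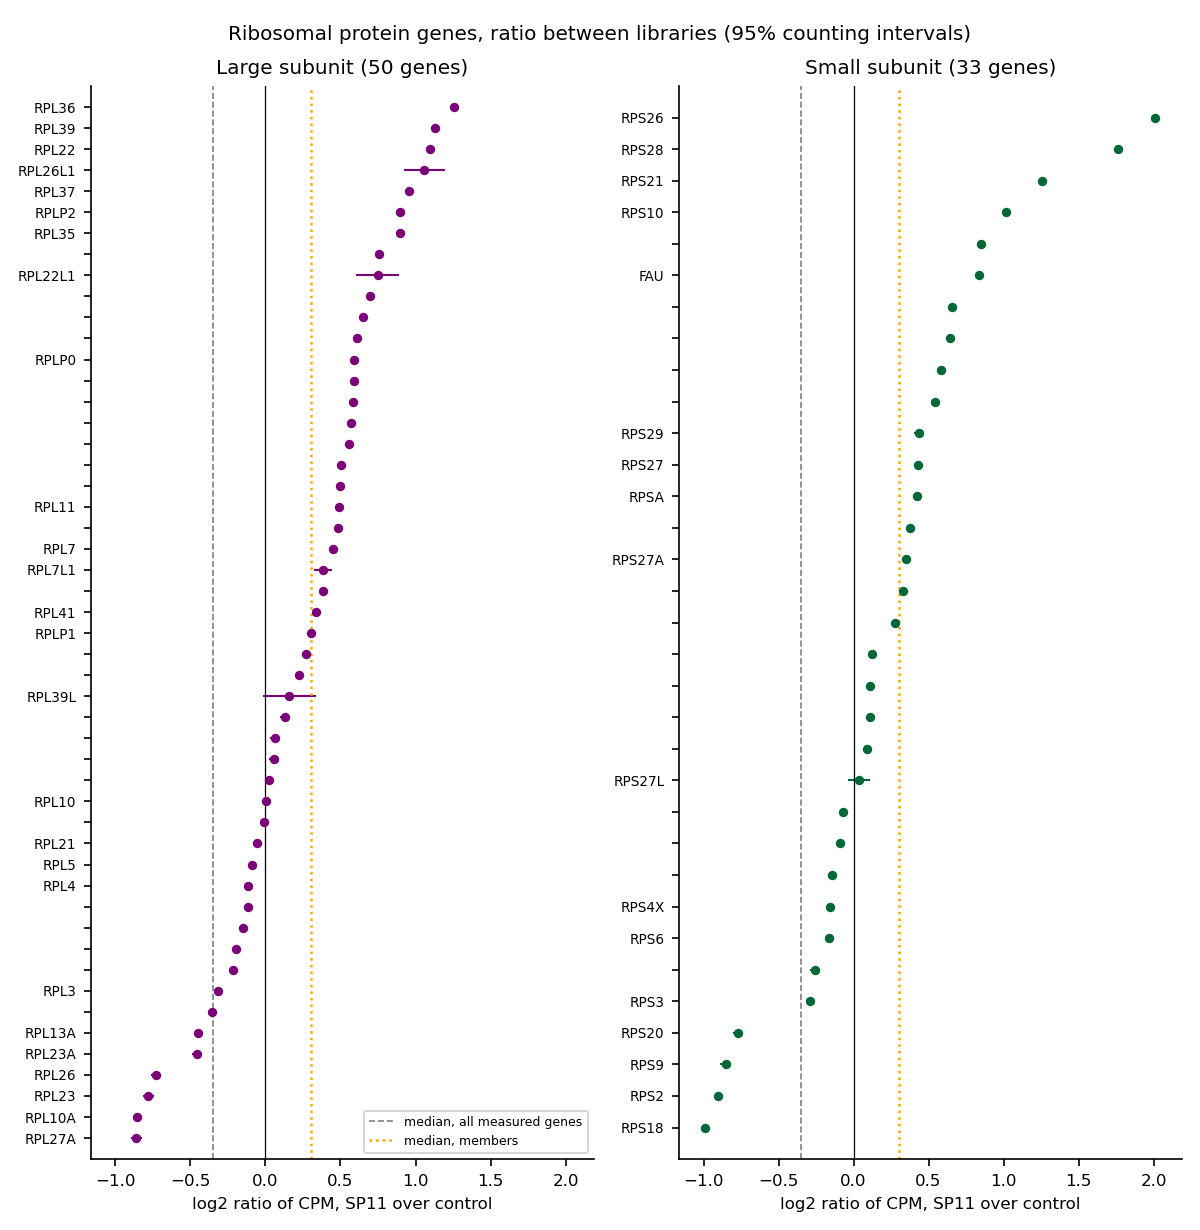
Ratio of SP11 to control CPM on the log2 scale (horizontal axis) of the 50 large subunit genes (left) and the 33 small subunit genes (right), 1 row per gene, with names for members named in the text. Points are ratios with bars for 95% counting error, a dashed line stands at the all-gene median (−0.35) and a dotted line at the member median (0.30); RPS26 and RPS28 stand above the rest and RPS18 lies lowest.

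The large and the small subunit stood in almost the same proportion in both libraries. Large subunit genes gave 57.7% of member UMIs in SP11 (57.63 to 57.76%) and 57.5% in control (57.47 to 57.57%), or 1.36 large subunit UMIs per small subunit UMI in SP11 and 1.35 in control. As parts of the whole library, the large subunit took 13.3% of UMIs in SP11 and 10.8% in control, and the small subunit took 9.78% in SP11 and 7.96% in control. The median log2 ratio was 0.32 over large subunit genes and 0.28 over small subunit genes, a difference of 0.05. Among large subunit genes 15 were at least 1.5-fold higher in SP11 and 4 lower, and among small subunit genes 8 were higher and 4 lower. Without the paralogs, the order of the medians turned, with 0.29 over 46 large subunit genes and 0.30 over 32 small subunit genes.

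The members also differed among themselves. Set against the member median, which removes any effect of library scaling, 24 of 83 genes departed by at least 1.5-fold, 11 upward and 13 downward, and 27 lay within 0.25 of it on the log2 scale. That is 28.9% of the members, against 46.8% of all measured genes about their own median. The share was 41.8% among the 55 other genes at 1000 CPM or more, and 18.2% among 77 mitochondrial ribosomal protein genes, a set of similar size. The 24 comprised 15 large and 9 small subunit genes.

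The highest ratios belonged to proteins of the small subunit. RPS26, which lines the channel where mRNA leaves the ribosome, stood at 4195 CPM in SP11 and 1040 CPM in control, a log2 ratio of 2.01 (1.99 to 2.04). Its gene lies at chr12:56041351-56044697 on GRCh38, and its part of all member UMIs was 1.81% in SP11 and 0.555% in control. RPS28, its neighbour at the mRNA exit, stood at 6438 CPM in SP11 and 1895 CPM in control (log2 ratio 1.76). RPS21, another small subunit protein, had 3832 CPM in SP11 and 1602 CPM in control (1.26). RPS10, which the ubiquitin ligase ZNF598 marks on collided ribosomes, had 3123 CPM in SP11 and 1541 CPM in control (1.02). Its read-through transcript gene RPS10-NUDT3 overlaps it and held 112 UMIs in SP11 and 154 UMIs in control.

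Of the large subunit, 7 genes departed upward. RPL36 had 4644 CPM in SP11 and 1947 CPM in control (1.25). RPL39, a short protein that lines the exit tunnel of the nascent chain, had 6937 CPM in SP11 and 3166 CPM in control (1.13). RPL22, which is dispensable for translation in most cells and recurrently lost or mutated in T-cell leukemia, had 2893 CPM in SP11 and 1350 CPM in control, a log2 ratio of 1.10 (1.08 to 1.12). RPL26L1, a near-identical copy of RPL26, had 93.2 CPM in SP11 and 44.7 CPM in control (1.06, 0.92 to 1.19). The remaining upward members were RPL37, an inhibitor of MDM2 when free of the ribosome, with a log2 ratio of 0.96, the acidic stalk protein RPLP2 with 0.89 and RPL35, which sits beside the tunnel exit, with 0.89.

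Downward, the small subunit again held the most distant genes. RPS18, a protein of the subunit head that contacts the large subunit, stood at 3174 CPM in SP11 and 6318 CPM in control, a log2 ratio of −0.99 (−1.01 to −0.97). It gave 1.37% of member UMIs in SP11 and 3.37% in control, from a gene at chr6:33272075-33276511. RPS2, at the mRNA entry site, stood at 2241 CPM in SP11 and 4190 CPM in control (−0.90). RPS9, a protein of the entry site as well, had 794 CPM in SP11 and 1433 CPM in control (−0.85). RPS20, which ZNF598 marks together with RPS10, had 1044 CPM in SP11 and 1782 CPM in control (−0.77), so these ZNF598 substrates stood on opposite sides of the group. RPS3, the third entry site protein, lay closer to the member median, with 2058 CPM in SP11 and 2514 CPM in control (−0.29).

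The 8 large subunit genes that departed downward were led by RPL27A, with 872 CPM in SP11 and 1582 CPM in control (−0.86). RPL10A, the protein of the mobile L1 stalk through which spent tRNA leaves, had 1820 CPM in SP11 and 3291 CPM in control (−0.85). RPL23, which binds MDM2 when free, had 826 CPM in SP11 and 1419 CPM in control (−0.78). RPL26, known for promoting translation of p53 mRNA, had 1244 CPM in SP11 and 2066 CPM in control (−0.73). RPL23A, where the signal recognition particle docks, was at −0.46, RPL13A, a part of the GAIT translational silencing complex, at −0.45 and RPL3, which reaches toward the peptidyl transferase centre, at −0.31.

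Other functional neighbours also had unlike ratios. Of the stalk that recruits elongation factors, RPLP2 was at 0.89, its base RPLP0 at 0.59 (2476 CPM in SP11 and 1642 CPM in control) and RPLP1, the member with the most UMIs in both libraries, at 0.30 (10928 CPM in SP11 and 8850 CPM in control). RPL5 and RPL11, which bind MDM2 together with 5S ribosomal RNA, were at −0.09 and 0.49. RPL10, which completes the large subunit and is mutated in some T-cell leukemias, had 4322 CPM in SP11 and 4306 CPM in control (0.01, −0.01 to 0.02). Its ratio lay between −0.65 and 0.36 over the alternative settings and changed sign in 7 of 16 of them. RPS6, the substrate of S6 kinases, was at −0.16 and the X-linked RPS4X at −0.16. FAU, which encodes a ubiquitin-like protein fused to a small subunit protein, was at 0.84, RPS27A, a fusion with ubiquitin, at 0.35 and RPSA, also known as the laminin receptor, at 0.42.

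The paralogs were compared with their partners as a part of the pair's UMIs. RPL26L1 gave 6.97% of the RPL26 and RPL26L1 UMIs in SP11 (6.53 to 7.43%) and 2.12% in control (1.98 to 2.26%), the widest shift of the 5 pairs, with the copy higher and RPL26 lower in SP11. In the other direction, RPL39L gave 0.614% of its pair in SP11 and 1.198% in control, RPS27L 7.73% in SP11 and 9.92% in control, and RPL22L1 2.67% in SP11 and 3.38% in control. RPL22L1 and RPL22 are known to be cross-regulated, since RPL22 holds the copy down. Both were higher in SP11, RPL22 by 1.10 and RPL22L1 by 0.75 (79.3 CPM in SP11 and 47.2 CPM in control) on the log2 scale. RPL7L1, which acts in ribosome assembly, gave 11.4% of its pair in SP11 (11.11 to 11.80%) and 11.9% in control (11.61 to 12.18%), with intervals that overlap. RPS27L, a p53 target in human cells, had 223 CPM in SP11 and 218 CPM in control (0.04, −0.04 to 0.11), and RPL39L, described as a germ cell and cancer copy, had 42.8 CPM in SP11 and 38.4 CPM in control (0.16, −0.02 to 0.33). Counts of all members are uncertain where reads fit a copy as well, since a member has a median of 12 processed pseudogenes in the annotation and RPL21 has 133.

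In single cells, the members took a median of 23.2% of the UMIs of an SP11 cell (quartiles 21.5 and 24.9%, lowest 1.82%, highest 59.2%) and 19.2% of those of a control cell (quartiles 17.1 and 21.6%, lowest 1.11%, highest 37.1%). The share exceeded the control median in 91.4% of SP11 cells, and it exceeded the SP11 median in 14.2% of control cells. Few cells lay far out, with 4 SP11 and 11 control cells under 10%, and 16 SP11 and 32 control cells over 30%. The 3 cells above 40% were all SP11 cells of its shallow cluster, described with the clusters. Among cells with at least 5000 UMIs, the standard deviation of the share was 2.61 percentage points in SP11, where sampling alone gives 0.411, and 3.12 in control, where it gives 0.300.

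The difference between the libraries changed with the depth of the cells. Among cells with at least 5000 UMIs, Spearman's correlation of the share with the cell's UMIs was 0.02 over 756 SP11 cells and −0.40 over 960 control cells, given as a description because both measures share the UMI total. In cells of 5000 to 10000 UMIs, 300 in SP11 and 45 in control, the members took 22.96% in SP11 and 24.05% in control, a log2 ratio of −0.07 (−0.08 to −0.06), the opposite direction to the whole. From 10000 to 15000 UMIs they took 23.4% in SP11 (284 cells) and 20.5% in control (211 cells), from 15000 to 20000 UMIs 22.9% in SP11 and 18.8% in control, and at 20000 UMIs and over 22.6% in SP11 (65 cells) and 18.0% in control (388 cells). The share was thus nearly flat over depth in SP11 and was lower in deeper cells of control. Under 5000 UMIs the share summed over cells was 24.9% in SP11 (96 cells) and 23.03% in control (93 cells). The median cell of that depth went the other way, with 23.6% in SP11 and 26.8% in control. The control cells of 5000 to 10000 UMIs had a median mitochondrial share of 10.7%, against 5.60% for the SP11 cells of that depth. Depth and treatment cannot be told apart here, since the libraries differ in depth as a whole.

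**Figure D2:**
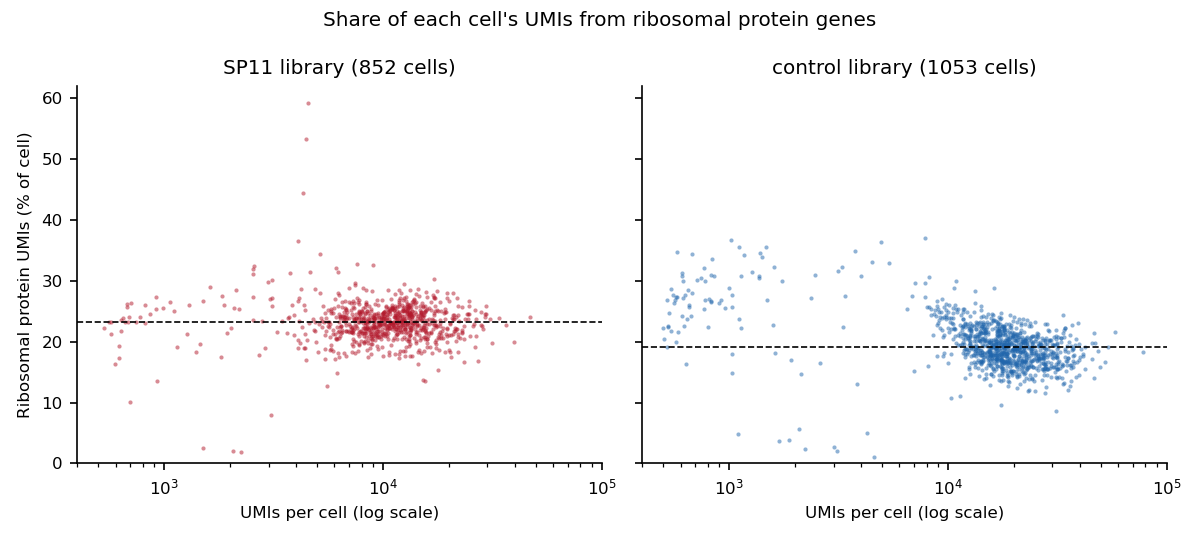
Percent of each cell's UMIs from the 83 ribosomal protein genes against the UMIs of the cell on a log axis, with SP11 on the left (852 cells) and control on the right (1053 cells). Each point is a cell and the dashed lines are the medians, 23.2% and 19.2%; the control cloud slopes down with depth and the SP11 cloud does not.

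Cell cycle phase was tied to small differences. The members took 23.2% in G1, 23.9% in S and 22.6% in G2M cells of SP11, and 19.3% in G1, 18.9% in S and 18.3% in G2M cells of control, so every SP11 phase lay above every control phase. In clusters built in each library without the member genes, 6 in each, the share ran between 22.4 and 29.5% in SP11 and between 17.2 and 29.8% in control. The highest value in each library was that of its shallowest cluster, with 70 cells at a median of 1826 UMIs in SP11 and 76 cells at a median of 787.5 UMIs in control. Without those clusters the ranges were 22.4 to 24.4% in SP11 and 17.2 to 21.6% in control.

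The clusters of a library are parts of 1 sample, and the members with the most extreme ratios differed between the libraries in each of them. RPS26 ran between 3936 and 4382 CPM over the SP11 clusters and between 1005 and 1810 CPM over the control clusters. RPS28 ran between 5688 and 6848 CPM in SP11 and between 1761 and 2653 CPM in control, and RPL22 between 2620 and 3461 CPM in SP11 and between 1218 and 2351 CPM in control. On the other side, RPS18 ran between 2826 and 3718 CPM in SP11 and between 5707 and 10267 CPM in control. None of these ranges overlapped, while those of RPL10 did, with 4015 to 6832 CPM in SP11 and 3814 to 6834 CPM in control. The separated genes were picked for extreme ratios between the same libraries, and RPL10 has a ratio near 0. Their separation largely follows from that choice and is no further check of it. The share of all members or all genes with separate ranges was not computed. RPS2 showed 1 SP11 cluster away from the others: in the shallow cluster it gave 0.346% of member UMIs, against 0.868 to 1.07% in the other 5, and the control clusters ran between 2.16 and 2.27%.

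**Figure D3:**
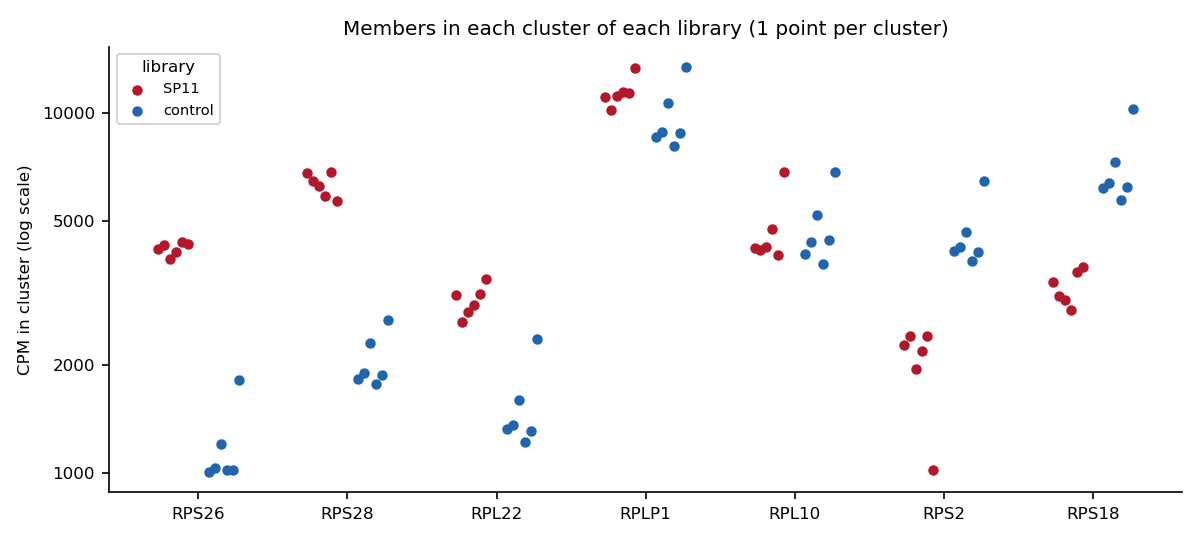
CPM of 7 members on a log axis in each of the 6 clusters of SP11 (left point group of each gene) and the 6 clusters of control (right point group), 1 point per cluster. RPS26, RPS28 and RPL22 are higher in every SP11 cluster than in any control cluster, RPS2 and RPS18 are lower, and RPLP1 and RPL10 overlap.

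Cell-to-cell variation of single members was measured as a dispersion, the variance of a member's counts over cells relative to that of sampling from the member total, after each cell was thinned to 1000 member UMIs. A value of 1 is sampling alone. The median over members was 1.22 in SP11 (752 cells) and 1.11 in control (960 cells), and 45 members exceeded 1.2 in SP11 against 17 in control. RPLP1 was the most variable in SP11 at 1.98 (1.44 in control), followed by RPL7, a large subunit protein, at 1.89 (1.17 in control) and RPL10 at 1.74 (1.33 in control). In control, RPL10A led at 1.81 and RPLP1 was at 1.44. The lowest values were those of RPL39L at 0.96, RPL22L1 at 1.00 and RPS29, a zinc-binding small subunit protein, at 1.02 in SP11, and of RPL26L1 at 0.93, RPL21, a large subunit protein, at 0.97 and RPS10 at 0.99 in control. Per 1000 member UMIs, RPL39L averaged 0.19 and RPL22L1 0.34 in SP11, and RPL26L1 averaged 0.22 in control. At so few counts, variation beyond sampling could hardly show, so low values of these paralogs are not read as even levels. RPS28 had 1.63 in SP11 and 1.11 in control, and RPS26 had 1.16 in SP11 and 1.05 in control.

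**Figure D4:**
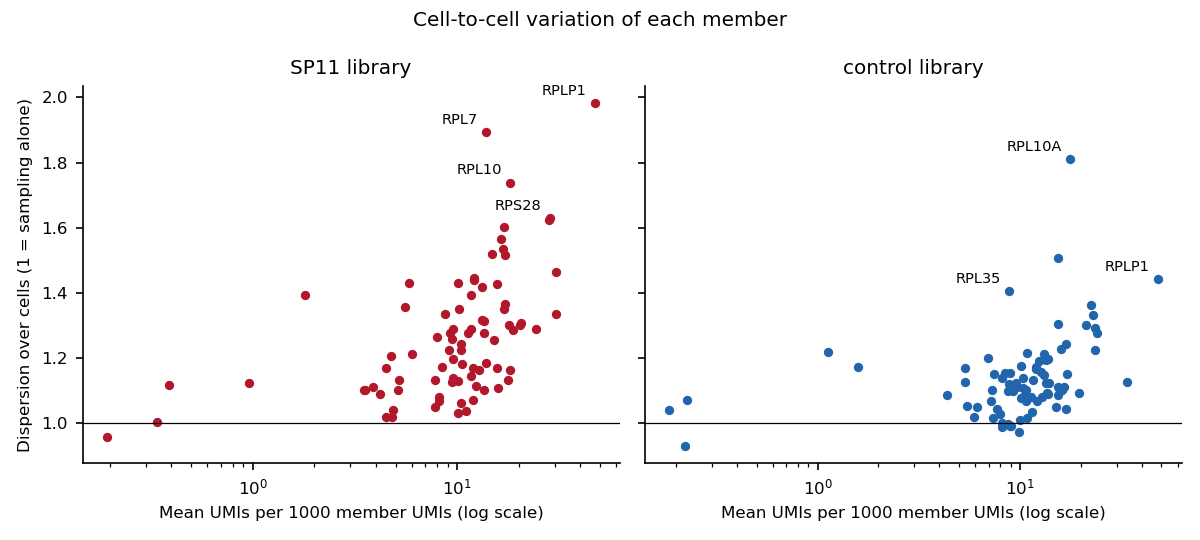
Dispersion of each of the 83 members over cells against its mean UMIs per 1000 member UMIs (log axis), in SP11 (left, 752 cells) and control (right, 960 cells). The line at 1 is sampling alone; the SP11 points reach 1.98 at RPLP1 and have a median of 1.22, and the control points reach 1.81 at RPL10A and have a median of 1.11.

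Several properties that the names do not carry were set beside the ratios. The 83 genes lie on 21 chromosomes, with 12 on chromosome 19 and 9 on chromosome 3, so neighbours on a chromosome do not make up the group. The ratio was related to the length of the coding sequence, with a Spearman correlation of −0.40 over the 83 members, and less to transcript length (−0.13), GC content (−0.04) or intronic length (−0.03). The 27 members with coding sequences of 75 to 390 bases had a median log2 ratio of 0.57, with 13 at least 1.5-fold higher in SP11 and 1 lower. The 28 of 396 to 552 bases had a median of 0.12, with 5 higher and 4 lower, and the 28 of 564 to 1281 bases had a median of 0.02, with 5 higher and 3 lower. RPS26, RPS28, RPS21, RPL36, RPL39 and RPL22 all belong to the shortest set, to which RPL41, the shortest at 75 bases, belongs with a ratio of 0.34. A relation of the same sign was seen outside the ribosome, at −0.47 over 1613 other genes with 100 CPM or more. Coding length did not stand out there, with −0.57 for intronic length and −0.45 for transcript length over 1639 genes. Over other genes at 1000 CPM or more, the correlation was −0.29 for coding length, −0.04 for transcript length and 0.31 for intronic length. These values describe genes of 2 libraries, and genes are not independent replicates.

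**Figure D5:**
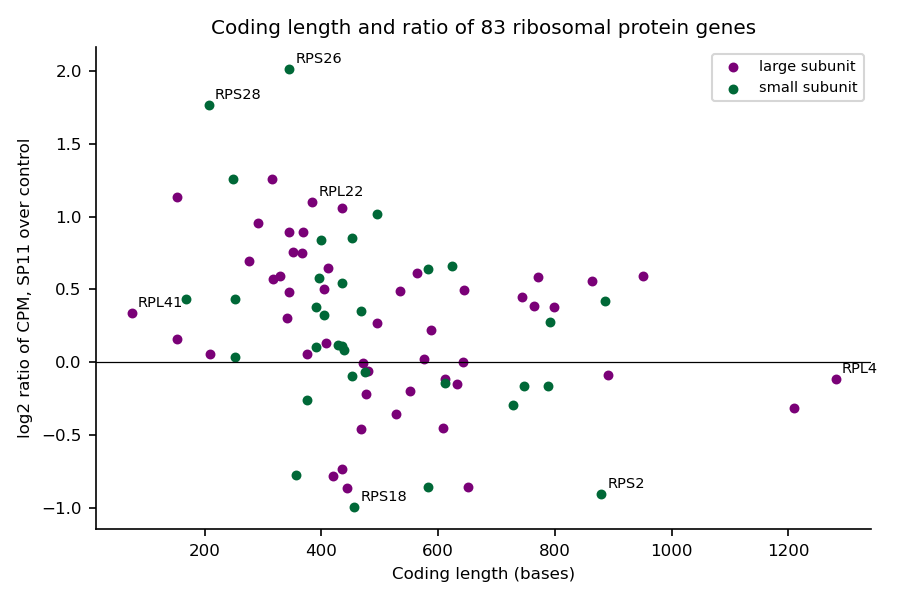
Ratio of SP11 to control CPM (log2 scale, vertical axis) against the coding length in bases of each of the 83 members, coloured by subunit. Short members reach the highest ratios, with RPS26 and RPS28 at the top, and the longest, RPL4 and RPL3, lie below 0.

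The TOP motif described above was searched as C followed by 4 letters that are each C or T, on the transcribed strand only. Promoters were matched by symbol for 67 of the 83 members. The motif stood exactly at the start in 44 of them (65.7%) and within 5 bases in 52 (77.6%), against 4.04% and 21.1% of all 27305 promoters. Among the 9106 promoters of measured genes, these shares were 5.67% and 22.9%. The motif stood at the start in 63.4% of large and 69.2% of small subunit members. It did so in 71.4% of 14 TOP mRNAs outside the ribosome and in 7.25% of 69 mitochondrial ribosomal protein genes. Members with the motif at the start had a median log2 ratio of 0.36 (44 genes, −0.99 to 1.26), those with it within 5 bases only 0.35 (8 genes) and those without it 0.13 (15 genes, −0.20 to 2.01). The motif was therefore found at both ends of the ratios, with RPS18 and RPL26 carrying it at the low end and RPS21 and RPL22 at the high end, while RPS26, the highest, was among those without it in this window.

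Other parts of the translation apparatus were listed for comparison. Ribosome biogenesis and nucleolar genes had a median log2 ratio of 0.57, with 15 of 34 at least 1.5-fold higher in SP11 and 0 lower, against 10.7% and 38.4% of all genes. Among them were DDX21, a nucleolar helicase, at 1.34, BOP1, a large subunit assembly factor, at 1.16 and NOP16, a nucleolar protein, at 1.15, and WDR12, which works in a complex with BOP1, was lowest at −0.50. Mitochondrial ribosomal proteins, the members' counterparts in the organelle, had a median of 0.31 with 25 of 77 higher and 2 lower, MRPL23 at 1.94 and MRPL52 at 1.61 against MRPL39 at −1.74. Initiation and termination factors had a median of 0.34 with 9 of 35 higher and 3 lower. EIF3J, a loosely bound initiation factor 3 subunit, was at 1.38, EIF4G2, a scaffold for cap-independent initiation, at 0.91 and the helicase EIF4A2 at −1.13.

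The mRNAs that share the TOP motif but encode no ribosomal protein had lower ratios than most members. The median was −0.13 over 21 genes, of which 1 was higher and 3 were lower by 1.5-fold. Together they took 1.77% of UMIs in SP11 and 1.86% in control. Over all measured genes, 10.7% were higher and 38.4% lower by 1.5-fold, with a median of −0.35. The median of each list in this paragraph lay above that. VIM, which encodes an intermediate filament protein, was at 1.78 and EEF1D, an elongation factor subunit, at 0.54, while GAS5, a snoRNA host gene, was at −1.69, the translocase EEF2 at −1.35 and EIF4B, a helicase cofactor in initiation, at −0.67. The 15 regulators of TOP mRNA translation had a median of −0.27 with 0 higher and 1 lower, RPTOR, the mTORC1 scaffold, at −1.07. Dedicated chaperones of ribosomal proteins had a median of 0.16 with 2 of 13 higher and 2 lower, led by GRWD1, the chaperone of RPL3, at 1.48 and ended by PRMT3, which methylates RPS2, at −0.92. Ribosome quality control genes had a median of −0.23 with 0 of 12 higher and 3 lower, GTPBP2, a rescue factor of stalled ribosomes, at −0.99 and the ubiquitin ligase LTN1 at −0.74.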

How the data were processed

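The deposited files hold UMI counts by gene and barcode, not normalized, 1 matrix per library. Cell Ranger 7.1.0 made them per the file headers, and the submitters' processing notes name GRCh38. The sources used here do not say whether intronic reads were counted. Cells with at least 200 genes and at most 20% mitochondrial UMIs were kept, after the study's methods. Scrublet (scanpy 1.11.5) called 21 SP11 and 45 control cells as doublets, which stayed in. Counts were summed per gene over kept cells and divided by their total (CPM). Ratios carry Clopper-Pearson intervals of the split of UMIs between libraries, which were tested on simulated counts drawn without differences between cells. CPM is not divided by gene length, so levels are compared between libraries and not between genes. A size of 1.5-fold is a description and not a call.

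Members and gene lists were chosen with earlier results of these data known. Named members were the 6 highest and 6 lowest ratios, all that departed at least 1.5-fold from the member median, paralogs with partners, stalk and 5S particle proteins, RPL10, RPL22, RPS6, RPS3, RPSA, FAU, RPS27A and RPS4X, and the 3 most and 3 least variable members per library. RPL4, RPL41 and the other list members named were taken as range ends. Of each list, up to 3 genes from each end were named. Not every gene taken by these rules is reported here. Seurat 5.3.0 under R 4.3.3 gave clusters and phases for each library by itself, with 2000 variable features without members, 10 components and resolution 0.5. Lengths came from GENCODE 44 and start windows from RefSeq. Alternatives included TMM (edgeR 4.0.16) and DESeq2 1.42.0 factors computed from the counts, other totals, filters and weights, and bins of cell depth and the removal of shared barcodes, chosen after seeing the data.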

Additional observations from a re-analysis of the deposited data

How the results depend on the processing

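No paired analysis was possible because each group has 1 library, and for the same reason no library could be left out. The log2 ratio of summed member levels and the member median (0.30 each as reported) were 0.65 and 0.65 with TMM factors and 0.65 and 0.65 with DESeq2 size factors, with 44 members at least 1.5-fold higher and 1 lower under both, because these factors set the median gene near 0. They were 0.38 and 0.38 over totals without member genes, 0.25 and 0.25 over totals without mitochondrially encoded genes, 0.33 and 0.34 with a mitochondrial maximum of 10%, 0.24 and 0.24 with equal weight per cell, and 0.27 and 0.26 with cells thinned to 5000 UMIs. The median was 0.32 with a wider choice of members and 0.26 after the trend with intronic length was subtracted. The summed ratio was 0.29 without barcodes found in both libraries, an alternative chosen after seeing the data. In depth bins, also chosen after seeing the data, the summed ratio was −0.067 and the median −0.10 at 5000 to 10000 UMIs, a reversed direction with 12 members higher and 17 lower, and they were 0.19 and 0.20 at 10000 to 15000 UMIs and 0.32 and 0.29 at 15000 UMIs or more. The cause of that change with depth was not tested. The reported counts of 23 higher and 8 lower stayed within 1.5 times under the other settings.

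The difference between subunit medians stayed between 0.02 and 0.08, and the count of members departing from the member median between 21 and 27, in the settings where they were recomputed. Leaving out the paralogs was not among those settings, and it turned the order of the subunit medians (0.29 large and 0.30 small). Over 16 alternatives 45 of 83 members kept the sign of their ratio, 34 positive and 11 negative, and 38 changed it at least once. RPS26 lay between 1.59 and 2.36, RPL22 between 0.65 and 1.45 and RPS18 between −1.36 and −0.64. The 45 control cells at 5000 to 10000 UMIs limit the comparison at like depth. Counting intervals leave out variation between cells, culture, capture and library preparation.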

Other observations

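RPL36AL, a near-identical copy of RPL36A whose name falls outside the member rule, had 395 CPM in SP11 and 317 CPM in control, a log2 ratio of 0.32. RACK1, a scaffold that sits on the head of the small subunit beside the mRNA exit but carries no RPS name, had 1155 CPM in SP11 and 1305 CPM in control (log2 ratio −0.18), opposite in sign to RPS26 and RPS28.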
